A study of Mus musculus with 24 samples.

Results

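The gene for interferon beta and the genes for the receptors of interferon beta and interferon gamma were followed through the response of mouse macrophages to lipopolysaccharide (LPS), with and without a bromodomain inhibitor. Every probe whose platform annotation names Ifnb1, Ifnar1, Ifnar2, Ifngr1 or Ifngr2 was taken, which gave 9 of the 25697 probes on the array. Ifnb1, Ifnar1 and Ifngr1 had 1 probe each, and Ifnar2 and Ifngr2 had 3 probes each. Of the 5 genes, 4 lay above the detection floor on all 3 arrays of some group and entered the tests among 8203 genes. Ifnar1 did not.

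All 24 arrays carried RNA of macrophages from the bone marrow of female C57BL/6 mice aged 6 weeks. Control cells were sampled without LPS (0 h) and at 1, 2 and 4 h of LPS, and cells labelled "BET treat" were sampled at the same times, which gave 8 groups of 3 replicates. The title of the study calls the treatment a bromodomain inhibitor. The sources used here do not give its name, its dose, the dose of LPS or when the inhibitor was added. The design text calls the replicates biological, but no label says whether they came from separate mice, so the p-values measure the spread between these samples, which may be technical. Of 7 macrophage marker genes on the array, 6 lay above the floor on all 24 arrays (Adgre1, Itgam, Fcgr1, Lyz2, Cd14 and Mertk) and Msr1 lay below it on all of them. None of 5 T cell markers ever lay above the floor, and neither did 3 of 4 markers of plasmacytoid dendritic cells (Siglech, Ly6d and Klk1), another source of type I interferon. The fourth of these, Cox6a2, had a mean level of 7.02, and of 7 neutrophil markers S100a8 lay above the floor on all arrays while 4 (S100a9, Ngp, Camp and Ltf) lay below it on all, with a summed level of 10.33 to 10.75 over the groups. Also below the floor on all arrays were 2 of 3 B cell, 2 of 3 endothelial, 1 of 3 fibroblast and 0 of 2 erythroid markers. The others in these lists lay above it on some arrays but not on all. Over all genes the root mean square deviation of an array from its group mean was 0.199 to 0.246 log2 units for replicate 1, 0.116 to 0.173 for replicate 2 and 0.138 to 0.185 for replicate 3.

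Interferon beta is the type I interferon that macrophages secrete soon after Tlr4 senses LPS. It binds a receptor built of the chains Ifnar1 and Ifnar2 on the same and on neighbouring cells, and the kinases Tyk2 and Jak1 bound to these chains then activate transcription factors, Stat2 with its partner Irf9 among them, that switch on antiviral genes. Interferon gamma, a product of lymphocytes, binds a different receptor of Ifngr1 and Ifngr2 chains that carries Jak1 and Jak2 and prepares macrophages to kill microbes. Ifnb1 is a classical model of inducible transcription: Irf3 or Irf7, NF-kB and the Jun and Atf2 pair assemble side by side on a compact enhancer just before the gene. BET proteins bind acetylated histones through their bromodomains and help recruit the elongation machinery of RNA polymerase.

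The Ifnb1 enhancer is shown because Ifnb1 had the steepest response of these genes, and a stretch before Ifnar2 is shown because Ifnar2 was the receptor gene that rose most. Both come from RefSeq, assembly GRCm38.p6, are read 5′ to 3′ on the strand of the gene and hold 120 bases each. Capitals in the Ifnb1 stretch mark matches to AANNGAAA, the core bound by interferon regulatory factors, to GGAANTTCC, a form of the NF-kB motif, and to TATAAA. Capitals in the Ifnar2 stretch mark a match to TTCNNNGAA, the gamma-activated sequence bound by Stat dimers.
Ifnb1, chr4:88522865-88522984, minus strand: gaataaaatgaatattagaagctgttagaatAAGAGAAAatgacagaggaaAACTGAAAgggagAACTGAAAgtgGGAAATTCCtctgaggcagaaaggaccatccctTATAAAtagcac
Ifnar2, chr16:91372533-91372652, plus strand: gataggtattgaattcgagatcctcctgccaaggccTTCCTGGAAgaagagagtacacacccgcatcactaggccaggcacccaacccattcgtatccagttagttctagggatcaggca

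These 4 motifs were searched on both strands of the 250 bases before each RefSeq start, from which positions are counted. Ifnb1 held 3 matches to AANNGAAA, which began at positions -159, -139 and -126, and 1 match to GGAANTTCC, from -115 to -107. These matches do not overlap. Of 32817 such windows over all RefSeq genes, 21.3% held AANNGAAA and 0.811% held GGAANTTCC. TATAAA occurred at 2 places before Ifnb1, of which the nearer is shown, and in 12.4% of all windows. Ifnb1 held no match to TTCNNNGAA, which 7.01% of windows held.

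The windows of the receptor genes held fewer of these matches and more CpG dinucleotides than that of Ifnb1. The match to TTCNNNGAA before Ifnar2 ran from position -214 to -206, and the windows of Ifnar1, Ifngr1 and Ifngr2 held 0 matches to any of these 4 motifs. CpG dinucleotides numbered 1 in the Ifnb1 window, against 11 for Ifnar2, 11 for Ifngr1, 19 for Ifnar1 and 25 for Ifngr2. The median over all windows was 6. Windows with fewer made up 7.87% for Ifnb1, 64.5% for Ifnar2 and Ifngr1, 80.3% for Ifnar1 and 89.3% for Ifngr2. A match is a likeness of letters and was not tested for binding.

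Ifnb1 lay below the detection floor before LPS, had risen by 1 h, had its highest mean at 2 h and fell by 4 h, and the inhibitor left it lower at each time after LPS. Levels are log2 intensities, and 6.46, the 99th percentile of 1305 probes of olfactory and vomeronasal receptor genes, served as that floor. Differences are given on the log2 scale ± standard error from limma, 3 arrays against 3, with p-values adjusted by Benjamini-Hochberg over the 8203 genes, and a gene was called at an adjusted p under 0.05. Where all arrays of a group lay below the floor, its mean was replaced by the floor and the fold is written "at least". The p-value beside such a fold is that of the fit without this replacement. It therefore rests partly on values not above background. Ifnb1 passed the filter through groups after LPS only.

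In control cells without LPS the Ifnb1 level was 5.97, 5.81 and 5.85 in replicates 1, 2 and 3, all below the floor. At 1 h it was 12.77, 10.50 and 10.49, at 2 h 11.52, 13.16 and 11.92, and at 4 h 9.10, 9.77 and 9.09. Replicate 1 was the highest array at 1 h and the lowest at 2 h. The 1 h and 2 h groups overlapped, and every array at 4 h lay below every array at 1 h and 2 h.

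Cells with the inhibitor also lay below the floor without LPS, at 5.69, 5.77 and 5.90. Their Ifnb1 level was 10.12, 7.33 and 7.27 after 1 h, 8.70, 10.42 and 8.94 after 2 h, and 6.17, 6.15 and 6.41 after 4 h. Replicate 1 again stood apart at 1 h and replicate 2 at 2 h, as in control cells. By 4 h all 3 treated arrays were back below the floor, while all 3 control arrays stayed above it.

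**Figure D1:**
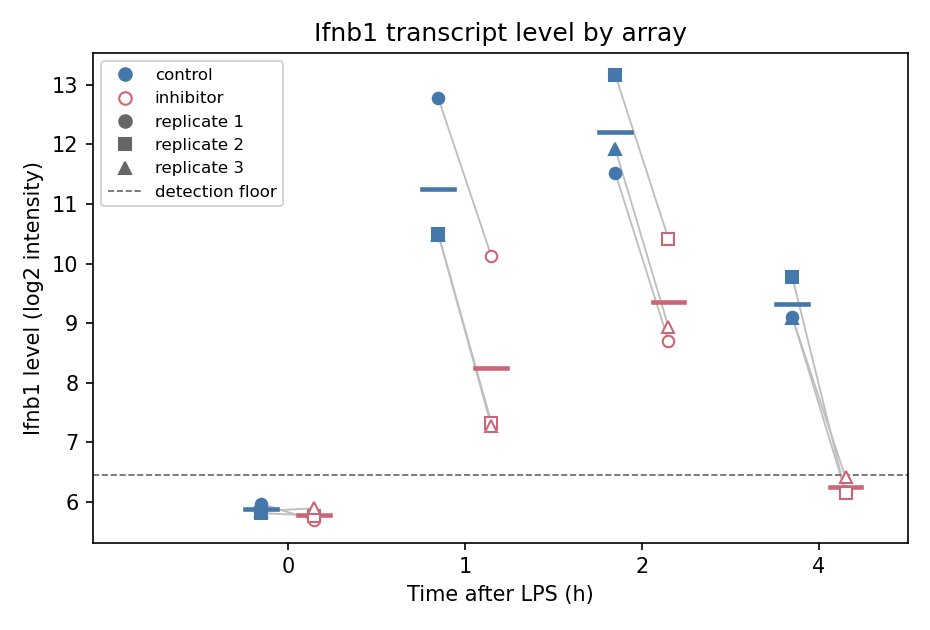
Ifnb1 level (log2 intensity) on each of the 24 arrays against the time after LPS, with control cells filled and treated cells open, symbols for the replicate number, bars for group means, grey lines joining same-numbered arrays and the floor dashed. Treated arrays lie below their control partner at 1, 2 and 4 h in all 9 pairs, and the treated arrays at 4 h lie below the floor.

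Against 0 h, Ifnb1 in control cells had risen at least 27.8-fold by 1 h, at least 53.5-fold by 2 h and at least 7.28-fold by 4 h (limma adjusted p = 1.27e-05, 2.86e-07 and 0.000153). Called rises made up 2.15%, 10% and 19.8% of all genes at these times. From 1 to 2 h the level in control cells differed by 0.95 ± 0.64 (limma adjusted p = 0.412). Without control replicate 1 at 1 h that difference was 1.71 (adjusted p = 0.0845), and with single other arrays left out it went down to 0.47, while weights for the arrays brought a call (1.47, adjusted p = 0.0242). From 2 to 4 h the level fell by 2.88 ± 0.64 (adjusted p = 0.00205), a change that 14.9% of genes also showed in that direction. These comparisons share the 0 h or the 2 h arrays.

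Treated cells also induced Ifnb1, to a lower level. Against treated cells without LPS it had risen at least 3.45-fold by 1 h and at least 7.44-fold by 2 h (limma adjusted p = 0.038 and 0.000427), when 1.73% and 7.4% of genes rose. The rise at 1 h rested on replicate 1: without that array the difference was 1.51 (adjusted p = 0.261) in place of 2.45. The call was also lost without any 1 of the treated arrays at 0 h (adjusted p = 0.0868 to 0.113). At 4 h no fold can be given, since both groups lay below the floor. From 2 to 4 h the level in treated cells fell at least 7.44-fold (adjusted p = 0.00108), as 14.8% of genes fell.

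Set against control cells at the same time, the inhibitor lowered Ifnb1 at 1, 2 and 4 h. The difference was -3.01 ± 0.64 at 1 h (limma adjusted p = 0.015), with -2.65, -3.17 and -3.21 in the 3 same-numbered pairs. At 2 h it was -2.85 ± 0.64 (adjusted p = 0.0077), with pairs of -2.82, -2.74 and -2.98. These correspond to control levels 8.05-fold and 7.19-fold above treated levels. At 4 h Ifnb1 was at least 7.28-fold lower in treated cells (adjusted p = 0.00149).

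The groups did not overlap at 1, 2 or 4 h. Called falls made up 0.78%, 4.22% and 10.2% of all genes at these times, and separation with treated arrays lower was found in 6.49%, 9.74% and 15.1% of genes. Ranked by the fitted inhibitor effect, Ifnb1 was the lowest of the 8203 genes at 1 h and rank 4 at 2 h. The call at 1 h was lost without control replicate 1 (-2.25, adjusted p = 0.149), treated replicate 2 (-2.55, adjusted p = 0.119) or treated replicate 3 (-2.53, adjusted p = 0.14). It was also lost when limma was fitted to only the groups compared (adjusted p = 0.34).

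Same-numbered arrays deviated together, so each control and treated pair of a time was also fitted as a block of its own, a fit chosen after seeing the data. The standard error of the Ifnb1 inhibitor effect then fell from 0.64 to 0.13, and the adjusted p-values were 1.44e-11, 1.26e-11 and 1.97e-12 at 1, 2 and 4 h. That error pools all times, the 0 h pairs below the floor among them, so background values lend it precision. The treated arrays at 4 h also lay below the floor. Standard deviations of the pair differences were 0.312, 0.123 and 0.485 at 1, 2 and 4 h. In that fit 7.03%, 27.8% and 47.8% of all genes were called in either direction. The spread of Ifnb1 between replicates of a group, with standard deviations of 0.86 to 1.63 at 1 and 2 h over both treatments, was thus mostly shared by same-numbered arrays.

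**Figure D2:**
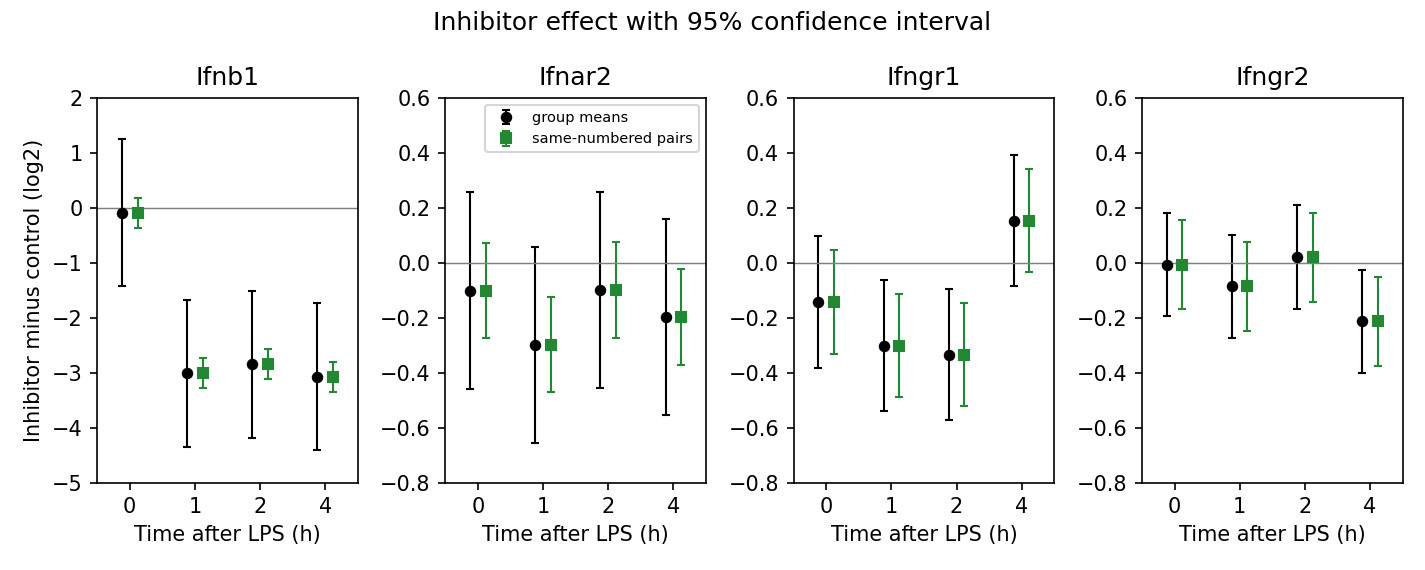
Inhibitor minus control (log2) at each time after LPS for the 4 measured genes, with 95% confidence intervals from the fit of group means (black circles) and from the fit with same-numbered pairs as blocks (green squares). Ifnb1 has its own vertical scale, with differences near -3 at 1, 2 and 4 h, while those of the receptor genes lie between -0.33 and 0.15. For Ifnb1 both groups at 0 h and the treated group at 4 h lie below the floor.

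Without LPS both groups lay below the floor, and no inhibitor effect on Ifnb1 could be measured. Differences between the inhibitor effect after LPS and that before it therefore have no measured size for Ifnb1. The fit called that at 4 h (limma adjusted p = 0.0471, where 8.02% of genes were called in either direction), but 3 of its 4 groups lay below the floor and the call was lost without any 1 of the 12 arrays involved (adjusted p = 0.0631 to 0.102).

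Between 1 and 2 h the inhibitor effect on Ifnb1 was not shown to differ. The effect at 2 h minus that at 1 h was 0.16 ± 0.91 (limma adjusted p = 0.999), with a 95% confidence interval of -1.73 to 2.06. When pairs were blocks the interval was -0.23 to 0.55. At 4 h the treated arrays lay below the floor, so the effect there has only a bound and was not set against the others. In whole cultures fewer cells making Ifnb1 and less Ifnb1 RNA per cell cannot be told apart.

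Ordered by level, Ifnb1 stood at 12.20 ± 0.86 in control cells at 2 h (SD, n = 3) and at 11.25 ± 1.32 at 1 h, groups that overlapped. Next came treated cells at 2 h (9.35 ± 0.93), control cells at 4 h (9.32 ± 0.39) and treated cells at 1 h (8.24 ± 1.63), each overlapping its neighbour. Treated cells at 4 h (6.25 ± 0.15) and both groups at 0 h lay below the floor and have no order. Treated cells at their highest therefore stood where control cells stood at 4 h.

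The receptor chains moved far less than their ligand, and the array read them unequally. Ifnar1, the chain that carries Tyk2, gave 5.56 to 5.85 over the 24 arrays, below the floor on all of them, so its probe gives no measure of its level or its change. Ifnar2, the chain that carries Jak1, rose after LPS with and without the inhibitor. Ifngr1, which binds interferon gamma, fell at 4 h, and Ifngr2, the partner chain that carries Jak2, rose slightly at 4 h in control cells.

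For Ifnar2 the control level was 7.53, 7.64 and 7.87 without LPS, 7.92, 7.46 and 7.99 after 1 h, 9.15, 8.60 and 9.02 after 2 h, and 9.35, 9.52 and 9.60 after 4 h. In treated cells it was 7.39, 7.70 and 7.65 without LPS, 7.39, 7.34 and 7.75 after 1 h, 9.0, 8.55 and 8.94 after 2 h, and 9.07, 9.47 and 9.33 after 4 h. All arrays at 2 h and 4 h lay above all arrays at 0 h and 1 h, whatever the treatment, and control and treated arrays overlapped at every time.

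In control cells Ifnar2 differed from 0 h by 0.11 ± 0.17 at 1 h (limma adjusted p = 0.95). By 2 h it had risen by 1.24 ± 0.17 and by 4 h by 1.81 ± 0.17, a 3.5-fold increase (adjusted p = 1.48e-05 and 3.19e-08). The level rose from 1 to 2 h by 1.14 (adjusted p = 0.000125) and then by a further 0.57 up to 4 h (adjusted p = 0.0175), where 6.17% and 13.3% of genes rose. The call on the second of these steps was lost without control replicate 2 at 2 h (0.41, adjusted p = 0.124) or without control replicate 3 at 4 h (0.51, adjusted p = 0.0651). Ifnar2 was thus first called at 2 h, whereas Ifnb1 was called at 1 h.

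Treated cells showed nearly the same course. Over treated cells at 0 h, Ifnar2 had risen by 1.25 ± 0.17 after 2 h and by 1.71 ± 0.17 after 4 h (limma adjusted p = 2.23e-05 and 1.07e-07), the latter among 19.7% of genes. The step from 1 to 2 h was 1.34 ± 0.17 (adjusted p = 3.1e-05, with 4.64% of genes rising), and that from 2 to 4 h was 0.47 ± 0.17 (adjusted p = 0.0452). The latter call was lost under 7 of 16 settings, among them those without replicate 2 at 2 h (0.33, adjusted p = 0.226), without replicate 2 at 4 h (0.38, adjusted p = 0.159) or without replicate 3 at either time (adjusted p = 0.0617 and 0.107). The inhibitor effect was -0.10 ± 0.17 at 0 h (95% confidence interval -0.46 to 0.26), -0.30 at 1 h (-0.66 to 0.06), -0.10 at 2 h (-0.46 to 0.26) and -0.20 at 4 h (-0.56 to 0.16), with adjusted p-values of 1, 1, 0.824 and 0.472. Treated arrays lay below their control partner in 3 of 3 pairs at 1, 2 and 4 h, a count with no share of all genes to set beside it. With each pair as a block the value at 1 h was called (adjusted p = 0.0325, with 7.03% of genes called).

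**Figure D3:**
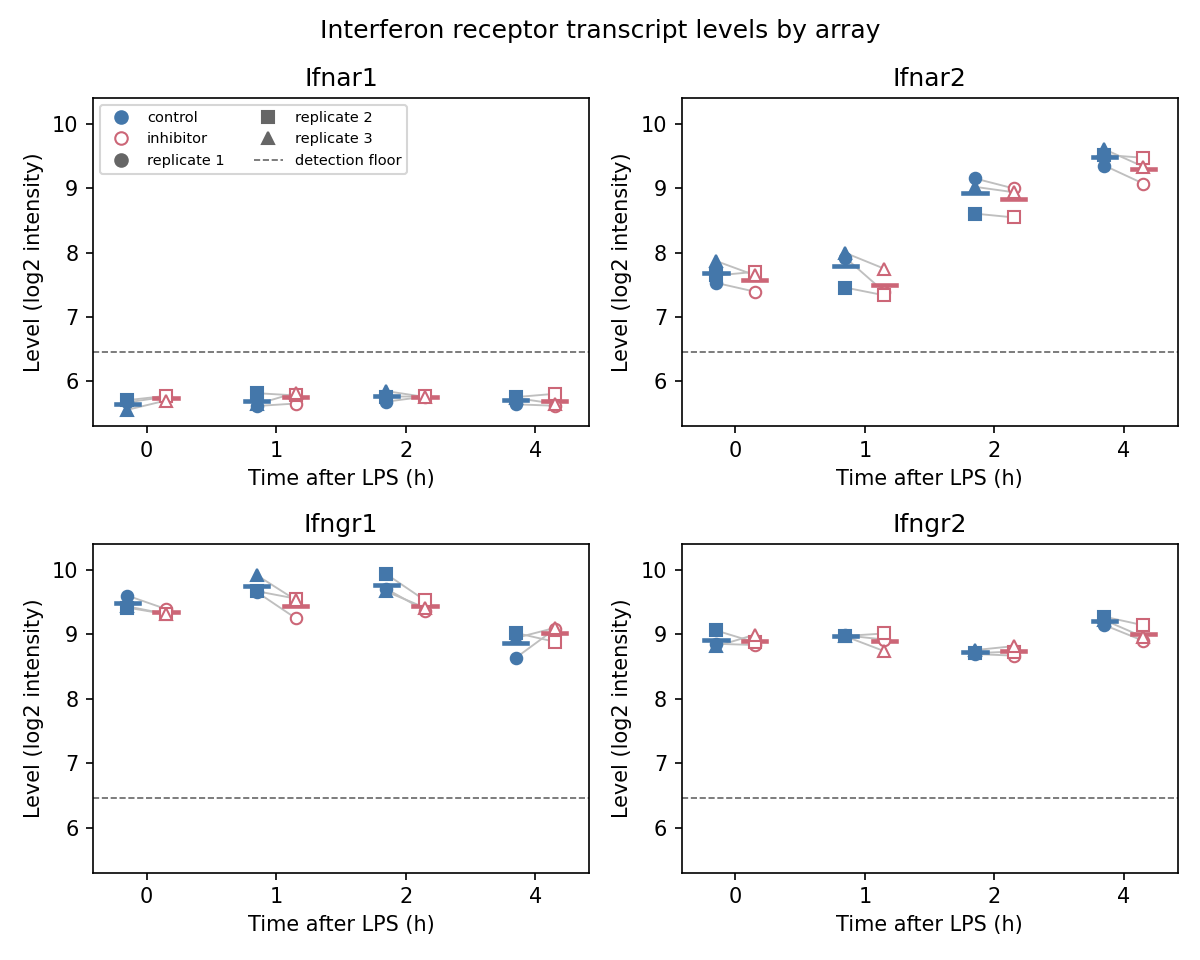
Levels (log2 intensity) of the 4 receptor genes on each array against the time after LPS, drawn as for Ifnb1. Ifnar1 lies below the dashed floor throughout, Ifnar2 rises from between 7.39 and 7.87 at 0 h to between 9.07 and 9.60 at 4 h in both treatments, and Ifngr1 and Ifngr2 stay between 8.63 and 9.94.

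For Ifngr1 the control level was 9.60, 9.42 and 9.43 without LPS, 9.66, 9.67 and 9.92 after 1 h, 9.71, 9.94 and 9.67 after 2 h, and 8.63, 9.02 and 8.94 after 4 h. Treated cells stood at 9.39, 9.31 and 9.32 without LPS, 9.25, 9.56 and 9.54 after 1 h, 9.37, 9.53 and 9.41 after 2 h, and 9.08, 8.89 and 9.10 after 4 h. Every treated array lay below every control array at 0, 1 and 2 h, and the groups overlapped at 4 h. Such separation with treated arrays lower was found in 2.62%, 6.49% and 9.74% of genes at 0, 1 and 2 h.

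Ifngr1 in control cells differed from 0 h by 0.27 ± 0.12 after 1 h and 0.29 ± 0.12 after 2 h (limma adjusted p = 0.349 and 0.0754). The 2 h value was called when the replicate number was a block (adjusted p = 0.0435, with 39% of genes called). At 4 h it fell by 0.62 ± 0.12 (adjusted p = 0.000144), as did 32.7% of genes. From 2 to 4 h Ifngr1 fell by 0.90 ± 0.12 (adjusted p = 6.45e-06), from a mean of 9.771 at 2 h against 9.485 at 0 h. In treated cells it fell by 0.32 ± 0.12 at 4 h (adjusted p = 0.0278), when 26.7% of genes fell, and that call was lost without treated replicate 2 at 4 h (-0.25, adjusted p = 0.119) or without any of the 3 treated arrays at 0 h (adjusted p = 0.0504 to 0.0748).

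The inhibitor effect on Ifngr1 was -0.14 before LPS, -0.30 after 1 h, -0.33 after 2 h and 0.15 after 4 h, each ± 0.12 (limma adjusted p = 1, 0.469, 0.0921 and 0.386). Treated arrays were lower in 9 of 9 pairs up to 2 h and in 1 of 3 pairs at 4 h. A block for the replicate number brought a call at 2 h (adjusted p = 0.0457, with 14.1% of genes called), as did a block for each pair (adjusted p = 0.00935). That at 1 h was called in the latter fit only (adjusted p = 0.049). The effect at 4 h minus that at 2 h was 0.49 ± 0.16 (adjusted p = 0.171), and with each pair as a block it was called (adjusted p = 0.0124, with 16.7% of genes called).

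For Ifngr2 the control level was 8.85, 9.06 and 8.81 without LPS, 8.98, 8.98 and 8.97 after 1 h, 8.69, 8.71 and 8.76 after 2 h, and 9.14, 9.27 and 9.22 after 4 h. In treated cells it was 8.84, 8.88 and 9.0 without LPS, 8.92, 9.01 and 8.74 after 1 h, 8.67, 8.73 and 8.82 after 2 h, and 8.90, 9.14 and 8.96 after 4 h. The control arrays at 4 h were the highest, though the lowest of them (9.144) was nearly level with the highest treated array (9.142). In control cells the arrays at 2 h were the lowest.

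Ifngr2 rose in control cells by 0.30 ± 0.09 at 4 h over 0 h (limma adjusted p = 0.00789), a 1.23-fold increase. After 1 h it differed by 0.07 ± 0.09 and after 2 h by -0.19 ± 0.09 (adjusted p = 0.928 and 0.134). From 2 to 4 h it rose by 0.49 ± 0.09 in control cells (adjusted p = 0.000336) and by 0.26 ± 0.09 in treated cells (adjusted p = 0.0342), where 13.3% and 15.1% of genes rose. The call in treated cells was lost under 5 of 16 settings, with the value at its lowest without replicate 2 at 4 h (0.19, adjusted p = 0.159) and the call also lost without replicates 1 or 2 at 2 h or replicate 3 at 4 h (adjusted p = 0.0535 to 0.101). The step from 1 to 2 h in control cells was -0.26 ± 0.09 (adjusted p = 0.0667), which a block for the replicate number brought to a call (adjusted p = 0.0257, with 23.2% of genes called).

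The inhibitor effect on Ifngr2 was -0.01 before LPS, -0.09 after 1 h and 0.02 after 2 h, each ± 0.09 (limma adjusted p = 1, 1 and 0.939). At 4 h treated arrays were lower in 3 of 3 pairs. The groups did not overlap, but only by the narrow margin of 9.144 against 9.142. Such separation in that direction was found in 15.1% of genes. The effect at 4 h was -0.21 ± 0.09 (adjusted p = 0.0986). That value was called when the block was the replicate number (adjusted p = 0.0464, with 35% of genes called) or each pair (adjusted p = 0.0291) and without treated replicate 2 at 4 h (-0.28, adjusted p = 0.0449).

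The other probes of Ifnar2 gave the same course, and those of Ifngr2 did not agree on every call. Values are from a fit over all 10891 probes above the floor. The probes ILMN_1225311 and ILMN_2971514 of Ifnar2 rose in control cells by 1.06 ± 0.27 and 0.93 ± 0.18 up to 2 h and by 1.69 ± 0.27 and 1.64 ± 0.18 at 4 h, against 1.81 for the probe described so far, ILMN_2598703. All were called at both times in both treatments. Neither gave a called inhibitor effect at any time, and at 2 h their effects differed in sign (-0.15 ± 0.27 and 0.05 ± 0.18). For neither was the step from 2 to 4 h called in treated cells (limma adjusted p = 0.0933 and 0.0674). In control cells that step was called for ILMN_2971514 (adjusted p = 0.00489) and not for ILMN_1225311 (adjusted p = 0.0898).

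For Ifngr2 the inhibitor effect of -0.21 at 4 h, read by probe ILMN_2592709, was -0.01 ± 0.09 for ILMN_1258300 and 0.00 ± 0.15 for ILMN_2784272. The rise at 4 h in control cells was 0.19 ± 0.09 (limma adjusted p = 0.0797) and 0.41 ± 0.15 (adjusted p = 0.0302) for these probes. In treated cells ILMN_1258300 rose by 0.25 ± 0.09 (adjusted p = 0.0305), which the other probes did not call. From 2 to 4 h in treated cells ILMN_1258300 rose by 0.35 ± 0.09 (adjusted p = 0.00588). For ILMN_2784272 that step was 0.37 ± 0.15 and not called (adjusted p = 0.0697). The sequences of the probes, and so the transcripts they read, were not used here.

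**Figure D4:**
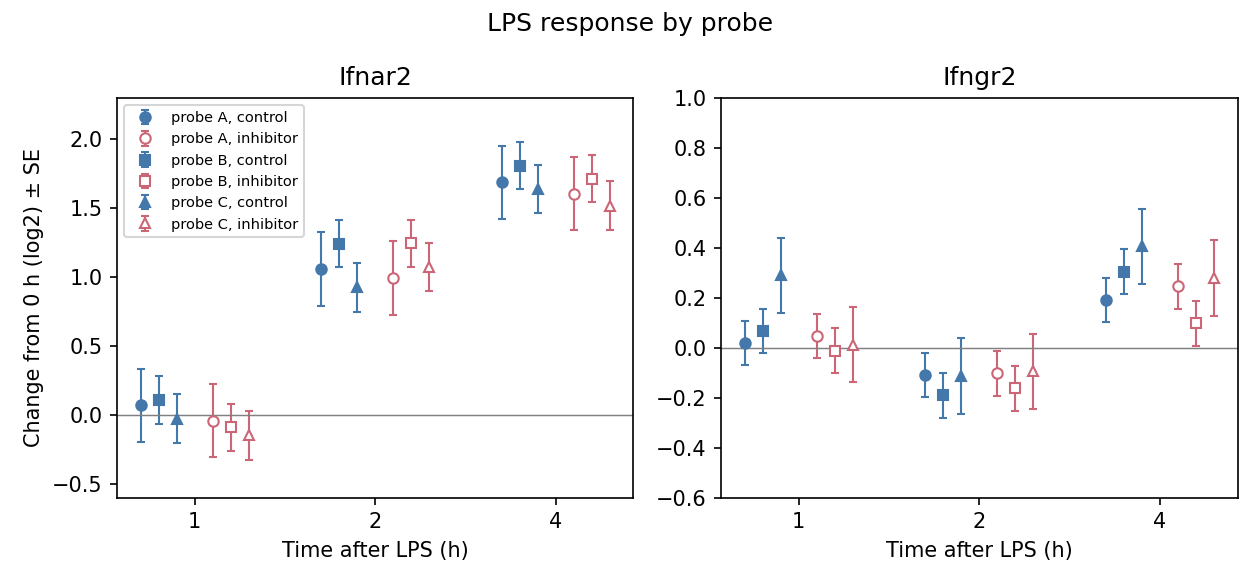
Change from 0 h (log2 ± standard error) of the 3 probes of Ifnar2 (A, ILMN_1225311; B, ILMN_2598703; C, ILMN_2971514) and of Ifngr2 (A, ILMN_1258300; B, ILMN_2592709; C, ILMN_2784272) at each time after LPS, with control cells filled and treated cells open. The Ifnar2 probes rise together by 1.52 to 1.81 at 4 h, while those of Ifngr2 change by 0.41 or less.

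Of the 4 measured genes, 1, 2 and 3 rose at 1, 2 and 4 h of LPS in control cells and 1 fell at 4 h, at times when 3.21%, 25.2% and 52.6% of all genes were called. In treated cells 1, 2 and 1 rose and 1 fell at 4 h, with 3.21%, 17.9% and 46.4% of all genes called. The inhibitor lowered 1 of 4, Ifnb1, at each of 1, 2 and 4 h and raised 0, where 1.3%, 6.94% and 22.8% of genes were called. At 0 h Ifnb1 lay below the floor in both groups, so no effect on it could be measured. Of the 3 receptor genes 0 were called there, against 0.158% of genes. Their unadjusted p-values from limma were 0.563 for Ifnar2, 0.226 for Ifngr1 and 0.942 for Ifngr2.

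On the assembly the genes of Ifnar2, Il10rb, Ifnar1 and Ifngr2 stand in this order next to each other on chromosome 16, followed by Tmem50b. Ifngr1 is on chromosome 10 and Ifnb1 on chromosome 4. Il10rb, which encodes the shared chain of the interleukin-10 receptor, differed by -0.08 ± 0.12 at 4 h of LPS in control cells (limma adjusted p = 0.598). Tmem50b differed by 0.21 ± 0.14 (adjusted p = 0.214). The rise of Ifnar2 was thus not called in the genes beside it that could be measured, apart from Ifngr2.

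Genes that carry the receptor signal were next compared. The receptor signalling list gave 5 measured genes, the kinases Jak1, Jak2 and Tyk2 and the transcription factors Stat2 and Irf9. In control cells 2 rose at 2 h and 3 at 4 h, when 10% and 19.8% of all genes rose, with medians of 0.64 and 1.30 beside medians of -0.08 and -0.14 over all genes. Jak2, the kinase on Ifngr2, rose by 1.83 ± 0.21 at 2 h and 3.09 ± 0.21 at 4 h (limma adjusted p = 1.82e-06 and 3.14e-10). Stat2 rose by 1.25 ± 0.39 and 2.96 ± 0.39 (adjusted p = 0.023 and 2.85e-06), and Irf9, its DNA-binding partner, by 1.30 ± 0.29 at 4 h (adjusted p = 0.000898). Jak1 and Tyk2, the kinases of the interferon beta receptor, were not called against 0 h at any time, while Tyk2 rose by 0.67 ± 0.19 from 2 to 4 h in control cells (adjusted p = 0.0119).

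Under the inhibitor 1 of these 5 genes was lower at 2 h, when 4.22% of all genes were, and 0 at 0, 1 and 4 h by limma's test. At those other times 0 had an unadjusted p under 0.05. Of all genes, 0%, 0.78% and 10.2% were lower at 0, 1 and 4 h. The gene lowered at 2 h was Irf9, at -1.02 ± 0.29 (limma adjusted p = 0.0359). Stat2 at 2 h stood at -0.58 ± 0.39 (adjusted p = 0.5). The kinases of both receptors had inhibitor effects of -0.20 to 0.46 at 0 to 4 h, none called.

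Negative feedback on the receptors was represented by 6 measured genes of 7. In control cells 3 rose and 1 fell at both 2 and 4 h. Of all genes, 10% and 19.8% rose and 15.2% and 32.7% fell at these times. Usp18, which displaces Jak1 from Ifnar2, rose by 2.48 ± 0.65 at 2 h and 5.23 ± 0.65 at 4 h (limma adjusted p = 0.00672 and 1.11e-06). Socs1, an inhibitor of the Jak kinases, was at least 2.26-fold and 5.45-fold higher at these times (adjusted p = 3e-06 and 9.55e-11), and Socs3, its relative, had already risen by 4.44 ± 0.39 at 1 h (adjusted p = 1.45e-07). Ptpn6, a phosphatase that acts on Jak kinases, fell by 0.54 ± 0.14 at 2 h (adjusted p = 0.00724).

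The inhibitor lowered 1 of the 6 at 2 h and 2 at 4 h, beside 4.22% and 10.2% of all genes. The inhibitor effect on Socs1 was -0.75 ± 0.17 at 2 h (limma adjusted p = 0.00691) and -0.78 ± 0.17 later (adjusted p = 0.00177), and that on Ptpn6 was -0.68 ± 0.14 at 4 h (adjusted p = 0.0014). Usp18 at 2 h stood at -1.63 ± 0.65 (adjusted p = 0.159) and Socs3 at 0.08 ± 0.39 (adjusted p = 0.946). Ptpn11 and Pias1 were called neither against 0 h in control cells nor under the inhibitor.

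The factors that act on the enhancer printed above were represented by 6 measured genes of 9. Irf7 rose in control cells by 1.48 ± 0.31 at 2 h and 4.09 ± 0.31 at 4 h (limma adjusted p = 0.00112 and 1.1e-09), and Rela, an NF-kB subunit, by 1.15 ± 0.18 and 1.30 ± 0.18 (adjusted p = 7.9e-05 and 5.87e-06). Irf3 was not called at any time. Ep300, the acetyltransferase recruited to the enhancer, fell by 0.67 ± 0.22 by 2 h (adjusted p = 0.0291), and Jun fell by 0.70 ± 0.29 at 4 h (adjusted p = 0.0498).

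At 0, 1, 2 and 4 h the inhibitor changed 0.158%, 1.3%, 6.94% and 22.8% of all genes by limma's test. It changed 0 of the 6 promoter factor genes at these times. At an unadjusted p under 0.05, 1 was higher after 1 h and 1 was lower after 2 h. The nearest values were -0.98 ± 0.31 for Irf7 at 2 h (limma adjusted p = 0.0604) and 1.11 ± 0.29 for Jun at 1 h (adjusted p = 0.0775), a time at which Ifnb1 was lower by -3.01. At 1 h the others, Irf3, Irf7, Atf2, Rela and Ep300, had inhibitor effects of -0.24 to 0.10. Transcript levels do not show how active these factors were.

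**Figure D5:**
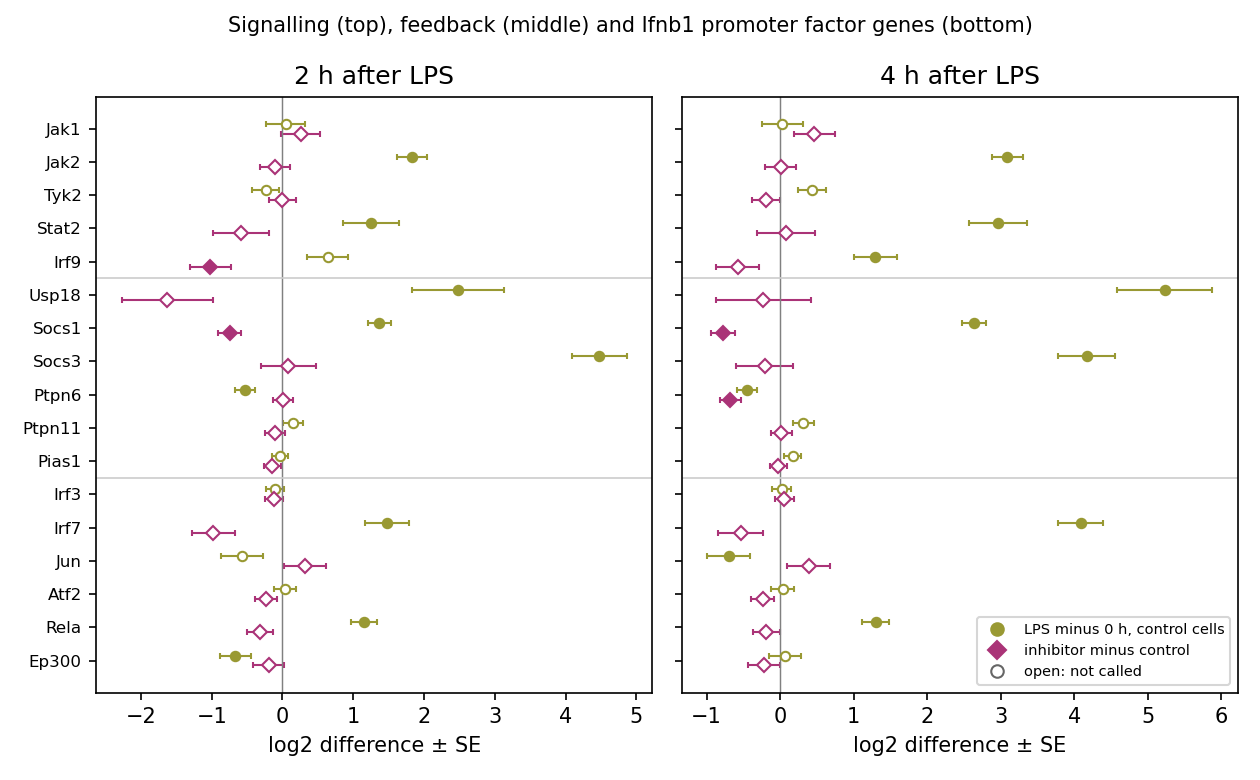
Differences (log2 ± standard error) at 2 h and 4 h of LPS for the measured genes of the signalling, feedback and Ifnb1 promoter factor lists, with LPS minus 0 h in control cells as circles and inhibitor minus control as diamonds, filled where called. Jak2, Stat2, Usp18, Socs1, Socs3, Irf7 and Rela have filled circles to the right at both times, and filled diamonds are seen for Irf9 and Socs1 at 2 h and for Socs1 and Ptpn6 at 4 h. Socs1 lies below the floor at 0 h, so its circles are fitted values and no bound.

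Among 12 measured genes of 15 that sense LPS or nucleic acids upstream of Ifnb1, 3 rose and 3 fell at 2 h of LPS in control cells, when 10% of all genes rose and 15.2% fell. Tlr4, the LPS receptor, fell by 1.24 ± 0.24 (limma adjusted p = 0.000638), and Ifih1, an RNA sensor, was at least 5.51-fold higher (adjusted p = 2.06e-09). By limma's test the inhibitor lowered 0 of the 12 at 1 h (3 at an unadjusted p under 0.05). It lowered 3 at 2 h, and at 4 h it lowered 5 and raised 1. Of all genes it lowered 0.78%, 4.22% and 10.2% at 1, 2 and 4 h and raised 12.6% at 4 h. At 2 h Tlr4 was at -0.97 ± 0.24 (adjusted p = 0.0149), Tank, an adaptor of the kinases that activate Irf3, at -0.81 ± 0.13 (adjusted p = 0.000453) and Ifih1 at -0.80 ± 0.19 (adjusted p = 0.0101). The median inhibitor effect of the list was -0.34 at 2 h and -0.57 at 4 h, beside 0.04 at both times over all genes.

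Of 26 other interferon genes and class II cytokine receptors, 5 were measured. Ifna5, a type I interferon, was at least 1.94-fold higher at 2 h of LPS in control cells (limma adjusted p = 0.0021) and had an inhibitor effect of -1.11 ± 0.35 there (adjusted p = 0.0619). Ifna6 rose by 0.45 ± 0.10 (adjusted p = 0.00152). Members of this family are near-identical copies, and their probes may read each other. Il10ra, the ligand-binding chain of the interleukin-10 receptor and a relative of the interferon receptors, had inhibitor effects of -1.35 ± 0.23 at 2 h and -1.19 ± 0.23 at 4 h (adjusted p = 0.000681 and 0.000722). Il20rb rose by 1.75 ± 0.17 at 4 h of LPS in control cells (adjusted p = 3e-08).

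Genes that type I interferon is known to induce rose after Ifnb1. Of 26 measured genes of 30, 1 had risen at 1 h, 18 at 2 h and 26 at 4 h in control cells, with medians of 0.04, 1.19 and 3.26, while 2.15%, 10% and 19.8% of all genes rose. In treated cells 1, 7 and 25 rose, with medians of 0.13, 0.34 and 2.37, while 1.73%, 7.4% and 19.7% of all genes rose. The most raised at 2 h in control cells were Oasl1, at 5.66 ± 0.56, Rsad2, at 5.64 ± 0.81, and Mx2, at least 31.3-fold higher (limma adjusted p = 1.89e-07, 2.42e-05 and 3.29e-06).

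Among the 26, the inhibitor lowered none before LPS or at 1 h by limma's test, 8 at 2 h and 11 later, at 4 h, and raised 0 at each time. Over all genes it lowered 0.78%, 4.22% and 10.2% at 1, 2 and 4 h. At an unadjusted p under 0.05, 0 were lower before LPS, and after 1 h 2 were lower and 1 was higher. Median inhibitor effects were -0.87 at 2 h and -0.61 at 4 h. At 2 h Cmpk2 stood at -2.68 ± 0.60 (limma adjusted p = 0.00694), Ifit3 at -2.56 ± 0.55 (adjusted p = 0.0048) and Mx2 at -2.49 ± 0.63 (adjusted p = 0.0174). At 4 h Isg20, an exonuclease of viral RNA, stood at -2.41 ± 0.22 (adjusted p = 1.47e-07). Oasl1, Cmpk2 and Rsad2, the genes raised most in treated cells at 4 h, had risen there by 6.71 ± 0.56, 6.64 ± 0.60 and 6.30 ± 0.81. Ifnb1 was below the floor in these cells at 4 h, but its mean had been 8.24 at 1 h and 9.35 at 2 h. Whether interferon beta took part in these rises was not tested.

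Genes linked to interferon gamma were counted in the same way. Of 18 measured genes of 20, 3 rose at 1 h, 13 at 2 h and 17 at 4 h in control cells, against 3, 4 and 16 in treated cells, beside the same shares of all genes as for the type I list. By limma's test the inhibitor lowered 0 at 1 h (1 at an unadjusted p under 0.05), 9 at 2 h and 9 at 4 h, when 0.78%, 4.22% and 10.2% of all genes were lowered. Cxcl9, a chemokine used as a readout of interferon gamma, stood at -2.89 ± 0.54 at 4 h (limma adjusted p = 0.000531), and Irf8 at -2.0 ± 0.30 (adjusted p = 6.23e-05). Many of these genes also answer to interferon beta or to LPS itself. Ifng, the gene of interferon gamma, was on the array but did not pass the filter. Of 3 markers of natural killer cells, a source of interferon gamma, Ncr1 and Klrb1c lay below the floor on all arrays, and the summed level of the 3 ranged from 7.50 in treated to 8.02 in control cells, both at 4 h. The other marker, Klrk1, was at least 1.62-fold higher at 4 h than at 0 h in control cells (adjusted p = 6.35e-09) and at least 1.62-fold lower with the inhibitor at 4 h (adjusted p = 1.71e-08). Klrk1 lay below the floor in every group but control cells at 4 h, and it passed the filter through that group alone. Both p-values therefore rest partly on values not above background. The part of such cells in these results was not tested.

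The genes whose levels followed those of Ifnb1 most closely over the 24 arrays were Il23a (Pearson r = 0.94), Flrt3 (0.91), Adm (0.90), Ints12 (0.90) and Maff (0.89). Il23a encodes the specific subunit of interleukin-23, and its inhibitor effects were -2.05, -1.72 and -1.14 at 1, 2 and 4 h. Maff, with -0.23, -0.20 and -0.55, had a far smaller inhibitor effect than Ifnb1 although the levels ran alike. For Ifnar2 they were Ifih1, Plagl2, Nfkb2, Il4i1 and Wdr37, with r from 0.96 to 0.97.

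For Ifngr1 the nearest were Lrrc8d, Pigo, Chaf1b, Cd163 and Lrp12 (r from 0.85 to 0.88), and for Ifngr2 they were Arid2, Keap1, Tceanc2, Zbtb8a and Lrch1 (r from 0.79 to 0.84). These coefficients are descriptions of 24 arrays that share 8 groups and 3 replicate numbers.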

How the data were processed

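Transcripts were measured on 24 Illumina bead arrays. The authors' deposited values of 25697 probes ran from 5.354 to 15.172 and were read as log2 intensities. Ranked values differed between arrays by at most 0.004 at 99% of ranks, so they were read as quantile normalized by the authors. The submitters' processing notes name limma; the sources used here do not give the background correction or genome build. A deposited table of 72 non-normalized columns, which no label pairs with samples, was not used.

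Symbols came from the platform annotation (23978 probes with 1 symbol, 1719 with none, 0 with several). A probe was kept when above 6.455 on every array of some group, leaving 10891 probes; the kept probe of highest mean stood for its gene. limma 3.58.1 (R 4.3.3) fitted 8 group means (16 residual degrees of freedom, two-sided tests). The procedure was tested on simulated data. The number of arrays limits the precision. No background was subtracted here, and the sources do not say whether the authors did so, so folds of dim genes may be understated.

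Same-numbered samples correlated above 0.1 in 42 of 42 comparisons of deviations (0.106 to 0.847), so the numbers were taken to pair them. Other settings tried were another normalization, filter, background, probe choice, array weights, replicate blocks and single arrays left out. Blocks within each time, and differences between successive times, were added after seeing the data. The genes and lists were chosen with earlier results of these data known. Named genes were all members, every measured gene of the signalling, feedback and promoter factor lists, the 3 largest called changes of other lists, and the 5 genes of highest correlation with each member. In the signalling list, 1 gene is not reported here.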

Additional observations from a re-analysis of the deposited data

Results flagged for a closer look

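The fitted inhibitor effect on Ifnb1 at 4 h of LPS minus that before LPS was -2.985 ± 0.909 log2 units (limma adjusted p = 0.0471 for the difference itself), but 3 of the 4 groups that enter it lay below the floor, so its size is not measured and its p-value rests partly on values not above background. Control cells at 4 h stood at 9.10, 9.77 and 9.09 and treated cells at 6.17, 6.15 and 6.41, with all 3 treated arrays lower, while both groups lay below the floor of 6.455 before LPS. The call was lost with no filter on dim probes (adjusted p = 0.0866), over all kept probes (adjusted p = 0.0515) and without any of the 12 arrays involved (adjusted p = 0.0631 to 0.102). It was kept with the replicate number as a block (adjusted p = 0.022).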

How the results depend on the processing

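Of 74 results on the 4 measured genes, 52 kept their direction and their side of the threshold under all settings tried, and of 1322 alternative values 45 lost a call, 28 gained it and 0 reversed a called direction. Ifnb1 at 1 h in treated cells (2.45) lost its call with no filter (2.45, limma adjusted p = 0.073), with only the groups compared (2.45, adjusted p = 0.171) and without 4 of 6 single arrays (1.51 to 2.94 over the 6). The Ifnb1 inhibitor effect at 1 h lost it with only the groups compared (-3.01, adjusted p = 0.34) and without 3 of 6 single arrays (-3.95 to -2.25 over the 6). That of Ifnar2 at 1 h gained a call with each pair as a replicate block within its time (-0.30, adjusted p = 0.0325). Ifngr1 in control cells gained one at 1 h with array weights (0.36, adjusted p = 0.0145) and at 2 h with cyclic loess (0.38, adjusted p = 0.015), housekeeping centring (0.37, adjusted p = 0.0268), the replicate block (0.29, adjusted p = 0.0435) and array weights (0.30, adjusted p = 0.00893). In treated cells at 4 h it lost its call with cyclic loess (-0.22, adjusted p = 0.11), only the groups compared (-0.32, adjusted p = 0.0543) and without 4 of 6 single arrays (-0.36 to -0.25 over the 6). Its inhibitor effect gained a call at 1 h with each pair as a block (-0.30, adjusted p = 0.049) and at 2 h with cyclic loess (-0.40, adjusted p = 0.0273), the replicate block (-0.33, adjusted p = 0.0457), array weights (-0.30, adjusted p = 0.0403) and each pair as a block (-0.33, adjusted p = 0.00935). Ifngr2 in control cells gained one at 2 h with array weights (-0.24, adjusted p = 0.0143) and lost that at 4 h with only the groups compared (0.30, adjusted p = 0.0539). In treated cells it gained one at 4 h as the mean of its probes (0.21, adjusted p = 0.0491). Its inhibitor effect at 4 h gained one with cyclic loess (-0.30, adjusted p = 0.0154), housekeeping centring (-0.32, adjusted p = 0.0312), the replicate block (-0.21, adjusted p = 0.0464), each pair as a block (-0.21, adjusted p = 0.0291) and without 1 of 6 single arrays (-0.28, in a range of -0.28 to -0.16 over the 6). The replicate block changed no other of these calls except in the differences and successive steps given with the results. The cause of these changes was not tested.

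Housekeeping centring moved the median of all genes by 0.20 for LPS at 4 h in control cells and by -0.11 for the inhibitor at 4 h, and cyclic loess moved the former by 0.13. The inhibitor called 107, 569 and 1874 genes at 1, 2 and 4 h, against 577, 2282 and 3924 with each pair as a block. With probes above the floor on all arrays Ifnb1 was not kept. Background correction of raw signals, detection p-values and slides as blocks were not run, since the non-normalized columns could not be paired with samples.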
